A study of Mus musculus with 42 samples.

Results

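H3K27ac was compared between Nur77-deficient (KO) and wild-type (WT) macrophages after 18 h of lipopolysaccharide (LPS). The comparison rests on 6 of the 42 libraries of the series, the 3 titled KO and the 3 titled WT for this antibody and time. The enriched regions that had been found in these 6 libraries were merged where they overlapped, and 51385 merged regions resulted. The macrophages had been grown for 7 days in L929-conditioned medium from bone marrow of male mice of 6 to 12 weeks, and both groups then received 100 ng/ml LPS for 18 h. The strain is deficient in Nur77 throughout the body: floxed Nr4a1 was crossed to CMV-Cre and Cre was bred out, per the study's methods, with littermates as WT. These methods name C57Bl6/J for the CMV-Cre mice and give no background for the floxed line. The part of the background in any difference was not tested. For the KO libraries the genotype label reads only "cre" and for the WT libraries "wt", and whether Cre itself bears on any difference was not tested. The other 36 libraries cover untreated cells and 1 h of LPS, RNA polymerase II (Pol II) and input chromatin, and are used here only where they show how the 18 h regions behaved elsewhere. The labels do not say whether replicates came from separate mice, and p-values measure the spread between these libraries only.

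H3K27ac is acetylation of lysine 27 of histone H3, a mark placed by the acetyltransferases CBP and p300 on active promoters and enhancers. In macrophages, LPS acts through TLR4 to induce NF-kB, AP-1 and, later, interferon-driven transcription, and H3K27ac is gained and lost at many enhancers as these factors bind. Nur77, encoded by Nr4a1, is an orphan nuclear receptor that is itself induced within an hour of LPS and binds the NBRE element as a monomer.

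The sequences below are the middle 300 bases of those named regions that held one of 4 motifs of macrophage factors. They were read from GRCm38 (mm10) on the plus strand and touch no annotated exon. Capitals mark the motifs searched on both strands, which were TGAGTCA for AP-1, AAAGGTCA for the NBRE of NR4A receptors, GAGGAAGT for PU.1 and GAAANNGAAA for the interferon-responsive ISRE. An NF-kB motif was searched as well and is not marked here. The first 5 come from regions that were lower in KO, and the last from a region gained in KO replicates 2 and 3 but not in replicate 1.
Trim5, start region, chr7:104287434-104287733: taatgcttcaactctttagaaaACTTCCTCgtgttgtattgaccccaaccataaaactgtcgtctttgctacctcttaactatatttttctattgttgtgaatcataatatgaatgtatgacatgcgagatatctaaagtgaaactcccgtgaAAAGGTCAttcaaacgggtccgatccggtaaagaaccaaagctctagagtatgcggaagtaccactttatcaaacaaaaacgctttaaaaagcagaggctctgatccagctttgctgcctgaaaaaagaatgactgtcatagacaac
Cd5l, start region, chr3:87361200-87361499: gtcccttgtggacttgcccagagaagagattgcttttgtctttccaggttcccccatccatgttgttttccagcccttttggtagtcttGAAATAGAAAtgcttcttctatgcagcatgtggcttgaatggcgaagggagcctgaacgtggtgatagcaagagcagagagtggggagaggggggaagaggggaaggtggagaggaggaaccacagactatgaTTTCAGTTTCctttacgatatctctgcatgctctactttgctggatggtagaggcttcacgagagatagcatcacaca
33726 bp from Hfe2, chr3:96489033-96489332: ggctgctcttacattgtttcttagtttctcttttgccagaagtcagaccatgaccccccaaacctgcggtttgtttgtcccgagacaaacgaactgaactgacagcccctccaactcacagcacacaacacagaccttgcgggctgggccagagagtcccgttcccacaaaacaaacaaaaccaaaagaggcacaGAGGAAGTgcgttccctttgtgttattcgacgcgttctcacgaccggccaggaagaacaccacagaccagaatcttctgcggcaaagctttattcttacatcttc
208129 bp from Vrk2, chr11:26804292-26804591: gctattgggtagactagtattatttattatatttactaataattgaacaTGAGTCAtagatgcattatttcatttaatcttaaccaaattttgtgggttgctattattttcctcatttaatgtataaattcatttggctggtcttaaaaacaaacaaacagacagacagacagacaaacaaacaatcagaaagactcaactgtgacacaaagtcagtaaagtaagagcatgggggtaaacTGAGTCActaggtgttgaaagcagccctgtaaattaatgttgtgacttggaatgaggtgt
57758 bp from Atf6, chr1:170807813-170808112: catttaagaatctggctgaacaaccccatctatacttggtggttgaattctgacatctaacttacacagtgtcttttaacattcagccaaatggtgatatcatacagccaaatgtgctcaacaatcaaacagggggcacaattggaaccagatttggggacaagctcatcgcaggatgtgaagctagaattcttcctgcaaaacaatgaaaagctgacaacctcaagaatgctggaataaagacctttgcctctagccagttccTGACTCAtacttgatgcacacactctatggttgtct
21545 bp from Lima1, chr15:99852874-99853173: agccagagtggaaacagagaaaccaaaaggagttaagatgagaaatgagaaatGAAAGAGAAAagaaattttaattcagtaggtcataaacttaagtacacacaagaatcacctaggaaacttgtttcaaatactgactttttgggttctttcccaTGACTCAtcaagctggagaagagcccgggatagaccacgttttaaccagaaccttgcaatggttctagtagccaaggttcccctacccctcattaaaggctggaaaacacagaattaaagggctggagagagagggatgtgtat
The window at Trim5 held an NBRE and a PU.1 motif, that at Cd5l held 2 ISRE motifs, that near Vrk2 held 2 AP-1 motifs, and that near Lima1 held an AP-1 and an ISRE motif. A match of letters is a description and no evidence of binding.

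The 6 libraries differed in depth. KO replicates 1, 2 and 3 held 55.4, 31.3 and 33.4 M tags (in units of 1e6) and WT replicates 15.0, 16.6 and 31.1 M. The regions found per library numbered 44752, 42191 and 40171 in KO and 37105, 38969 and 42231 in WT, and the groups overlapped. The difference of 2936 regions was not significant (exact two-sided permutation test, p = 0.3, smallest possible 0.1). Regions held 83.9%, 87.7% and 81.0% of tags in KO and 86.3%, 86.2% and 88.2% in WT, which overlap as well (exact two-sided permutation test, p = 0.3). The shallowest libraries, WT replicates 1 and 2, had the fewest regions and the deepest the most, but KO replicate 3 had fewer than KO replicate 2 and WT replicate 3 of lower depth. When only regions above 14.5 normalized tags per kb were kept, a density every library could reach, the order turned, and the KO minus WT difference was -5305 regions (exact two-sided permutation test, p = 0.1, the smallest possible).

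At the deleted gene itself, Nr4a1 (ENSMUSG00000023034, chr15:101254269-101274795), both genotypes were low. The gene carried little H3K27ac at 18 h in either genotype. The normalized tags (tags per 10 M of a library) within 2500 bp of its start were 5.33, 6.87 and 0 in KO and 14.3, 6.33 and 22.1 in WT. Only 1 KO value exceeded the lowest WT value, and the difference of -0.77 ± 0.34 (SE) on the log2(tags + 10) scale did not pass the test (limma, adjusted p = 0.41). An intragenic region at chr15:101261698-101263369 held 14.4, 15 and 10.3 tags in KO and 20.3, 36.5 and 37.7 in WT, also without passing (limma, adjusted p = 0.21). At these levels H3K27ac is no check of the genotype. Its paralogs Nr4a2 and Nr4a3, which bind the same element, held more. Nr4a3 read 422, 197 and 210 tags in KO and 179, 136 and 162 in WT, with every KO value above WT, but adjusted p was 0.38.

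KO replicate 1 stood far from the other 5 libraries. Across the 28911 regions found in all 6, KO replicates 2 and 3 correlated at a Pearson's r of 0.994 and the WT pairs at 0.990 to 0.992. KO replicate 1 correlated at 0.903 and 0.904 with the other KO libraries and at 0.899 to 0.903 with WT. Even KO replicates 2 and 3 and WT, of different genotype, were closer, at 0.973 to 0.977. These values describe regions of the same libraries and carry no test. Whether the label of this library is right was not tested, and the same holds at 1 h, where KO replicates 2 and 3 stood apart from KO replicate 1 and WT. Every KO value therefore rests on the labels as deposited, and replicates are given singly.

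**Figure D1:**
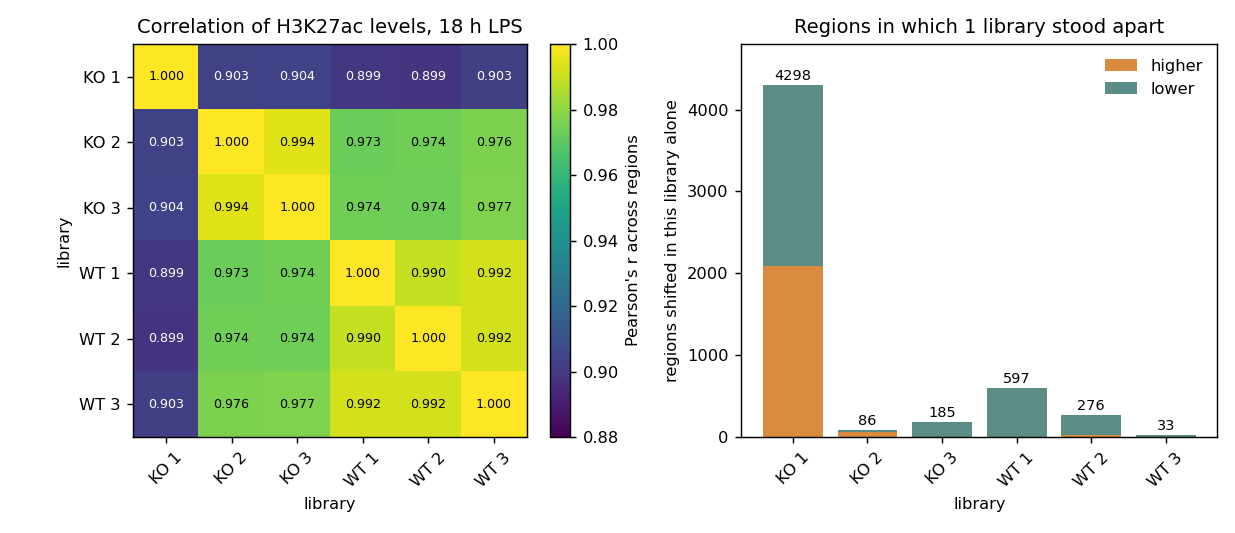
Left, Pearson's r of log2(normalized tags + 10) for each pair of the 6 libraries across the 28911 regions found in all of them. Right, number of regions in which 1 library lay more than 1 log2 unit from the mean of the other genotype and outside its range while its 2 companions stayed within 0.5; KO replicate 1 has 4298 and the other 5 libraries 33 to 597.

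Of 39767 regions found in at least 2 libraries of a genotype, 4298 (10.8%) were shifted in KO replicate 1 alone, with 2086 higher and 2212 lower. A region was put in this class when replicate 1 lay outside the WT range and over 1 log2 unit from the WT mean, while replicates 2 and 3 were within 0.5 of that mean. Made for each other library in its own group, the same count gave 86 for KO replicate 2 and 185 for KO replicate 3. It gave 597, 276 and 33 for WT replicates 1 to 3, nearly all of them lower. By contrast, 609 regions (1.53%) were shifted by over 1 unit and beyond the WT range in all 3 KO libraries, 392 higher and 217 lower. A further 378 (0.951%) were shifted in KO replicates 2 and 3 while replicate 1 stayed at the WT level, 307 higher and 71 lower.

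**Figure D2:**
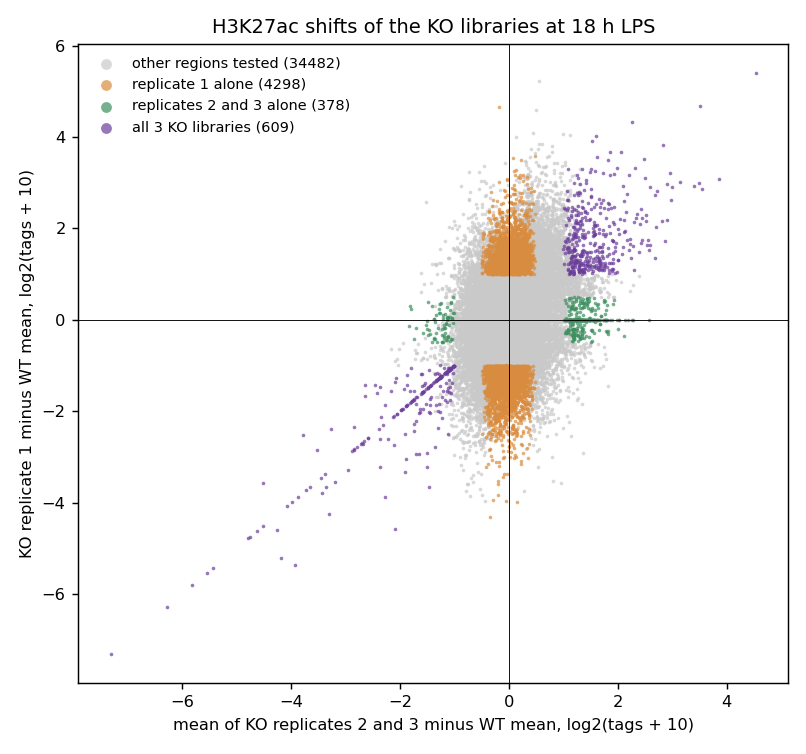
Each point is 1 of 39767 regions; the x axis gives the mean of KO replicates 2 and 3 minus the WT mean and the y axis KO replicate 1 minus the WT mean, both in log2(normalized tags + 10). The 609 regions shifted in all 3 KO libraries lie near the diagonal, and the 4298 of replicate 1 alone form the vertical bands above and below 0.

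The linear model (limma) over all 6 libraries called 283 regions at an adjusted p under 0.05 and a change over 1 log2 unit, which is 0.712% of the regions tested. Of these, 145 (0.365%) were higher and 138 (0.347%) lower in KO, and 246 were also among the 609 shifted in all 3 KO libraries. At an unadjusted p under 0.05 there were 6204 regions. Without KO replicate 1 the same test called 1513 regions, 4% of those tested, with 1076 higher and 437 lower. Without KO replicate 2 or 3 it called 79 (21 higher, 58 lower) and 69 (19 higher, 50 lower). Without WT replicate 1, 2 or 3 it called 44 (11 higher, 33 lower), 47 (14 higher, 33 lower) and 42 (12 higher, 30 lower). The split between directions also moved with the setting. Centring each library on its median gave 195 higher and 125 lower, and the common density limit gave 152 higher and 400 lower.

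Both fits share the WT libraries and KO replicates 2 and 3, so the place of replicate 1 is given by its own values against WT. Those WT libraries also made the calls, and the shares over all regions do not correct for this. The counts are therefore only a description of replicate 1. In the 1076 regions called higher without it, replicate 1 lay above the WT range in 671 (62.4%) and below it in 67, against 42.5% and 36.4% over all regions. In the 437 called lower, it lay below the WT range in 341 (78.0%) and above it in 56. In 446 of the higher and 249 of the lower regions its shift also passed 1 log2 unit, which over all regions was so in 11.8% (above WT) and 10.3% (below). That made 695 of the 1513 (45.9%), whereas in 378 replicate 1 was within the WT range.

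The clearest losses were regions present in every WT library and found in no KO library, which was the case for 53 of the 138 called lower. Trim12a, of the antiviral tripartite-motif family, had the largest fitted change. Its start region at chr7:104311883-104317165 held 1563, 1551 and 1604 tags in WT and was not found in any KO library (limma, adjusted p = 2.15e-06). A region at chr7:106614598-106619977, between olfactory receptor genes near Olfr693, held 767, 777 and 746 tags in WT and none in KO. An intergenic region near Hfe2, chr3:96486921-96491446, held 537, 561 and 556 against none. The 2 intergenic regions near Vrk2, which encodes a kinase, held 226 to 282 tags in WT and none in KO. These are changes between found and not found, and for them no fold is given.

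Other lost regions kept a small level in KO. The start region of Trim5, whose protein restricts retroviruses, chr7:104285322-104289846, held 21.4, 33.1 and 27.7 tags in KO and 723, 751 and 795 in WT. That was a change of -4.37 ± 0.15 (SE, log2(tags + 10), adjusted p = 6.16e-05). Cd5l encodes a secreted macrophage protein that inhibits apoptosis. Its start region, chr3:87356067-87366634, held 30.6, 9.26 and 13 tags in KO and 482, 443 and 491 in WT (limma, adjusted p = 0.00135). A region in Sh2d1b1, which encodes an adaptor of SLAM receptors, held 15.7, 43.4 and 35.3 against 461, 501 and 466. KO replicate 1 was the highest KO library at Cd5l and the lowest at Sh2d1b1, and all 3 were far below WT at both.

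Gains of the same kind were fewer in tags. In 63 of the 145 regions called higher no WT library had a region. A region starting 15735 bp from the Fbxw7 start, in the gene of this ubiquitin ligase subunit, chr3:84793814-84799533, held 246, 116 and 93.8 tags in KO and none in WT. One within Vav3, which encodes a guanine nucleotide exchange factor, held 69.9, 107 and 96.7 against none. Replicate 1 was the highest KO library in the first and the lowest in the other. The Fbxw7 call was lost without any 1 of the WT libraries (adjusted p up to 0.065) and that in Vav3 above 40 tags per kb (adjusted p = 0.31). Near Acsl1, which encodes an acyl-CoA synthetase, the tags were 114, 143 and 105 in KO and 0, 19 and 5.94 in WT, a call lost in 5 of 17 alternatives, including those without KO replicate 2 or 3 or WT replicate 1 or 3.

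Among regions found in all 6 libraries, the largest gains included 1 upstream of Il6, the cytokine gene. At chr5:29945125-29951984, 61130 bp from its start, the tags were 387, 154 and 145 in KO and 33.9, 35.5 and 32.7 in WT. This was a rise of 2.29 ± 0.35 (SE, adjusted p = 0.0401), and the KO value of replicate 1 was the highest. A region 90178 bp from the start of Ssr3 held 473, 333 and 289 against 50.5, 35.9 and 54.6. At neither of these did the genotypes overlap, which the rule for naming regions required. The call upstream of Il6 was lost in 8 of 17 alternatives, among them each fit without KO replicate 2 or 3 or without any 1 WT library (adjusted p up to 0.25).

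**Figure D3:**
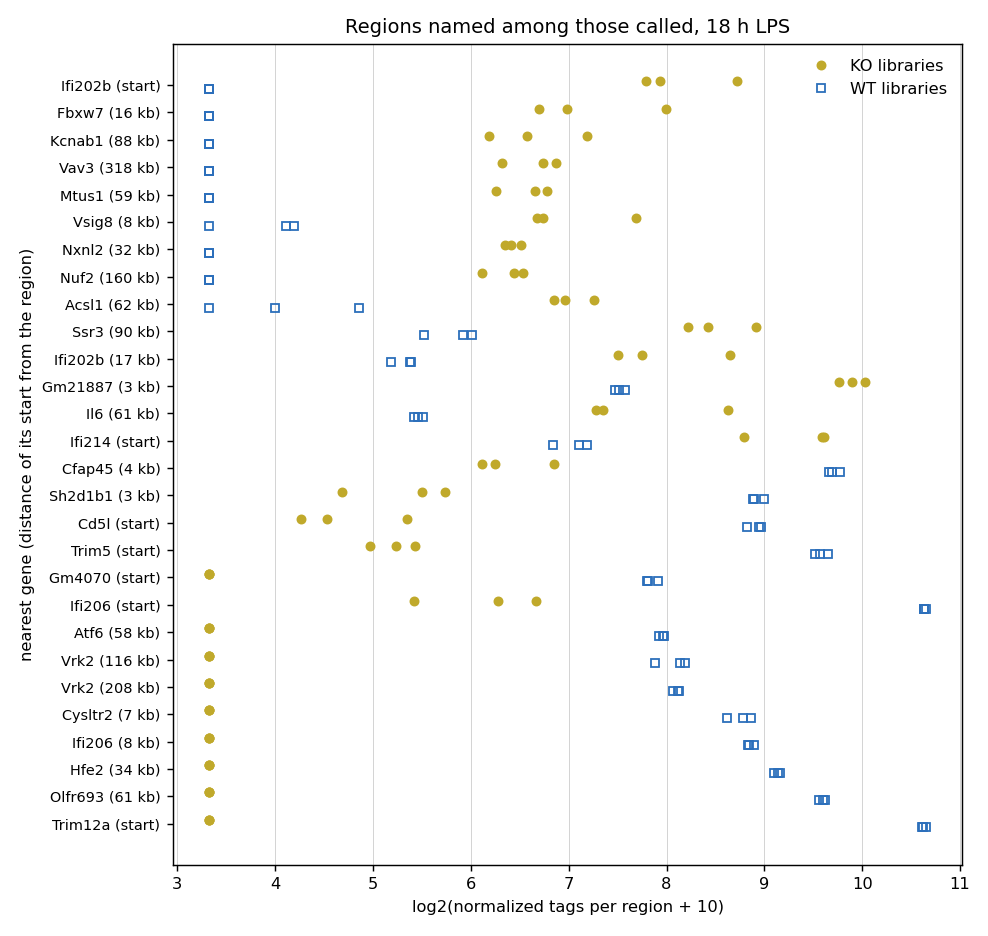
Normalized tags of the regions named, on the log2(tags + 10) axis, with 3 KO libraries (filled circles) and 3 WT libraries (open squares) each; the y axis names the nearest gene and the distance of its start. A value of 3.3 at the left edge stands for a region not found in that library. The KO and WT libraries are separate in every row, as the rule for naming regions required.

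The interferon-inducible Ifi200 genes, which lie side by side on chromosome 1 and encode HIN-domain proteins that sense nucleic acids, changed in both directions. Ifi202b had a start region in KO only, chr1:173973190-173983539, with 412, 234 and 212 tags, and none in WT (limma, adjusted p = 0.000631). The KO input at 18 h held 209 tags in this region, about the level of KO replicates 2 and 3, and the WT input 110, and the part of input in this call was not tested. Ifi214 rose at its start region, chr1:173532203-173539109, from 127, 104 and 135 tags in WT to 432, 763 and 769 in KO (2.29 ± 0.24 SE, adjusted p = 0.00971). Ifi206 fell at its own, chr1:173487504-173493277, from 1603, 1579 and 1577 to 32.8, 91.2 and 67.5 (-4.52 ± 0.29 SE, adjusted p = 0.00119). Within 2500 bp of gene starts, 2 of the 11 listed family members tested rose and 2 fell, against 0.14% and 0.34% of all genes. Without KO replicate 1, 6 were higher and 5 lower, where 9.86% of all genes were called. Besides Ifi206, Ifi203 fell. Its tags were 665, 602 and 647 in WT and 379, 372 and 329 in KO, and each fit without KO replicate 2 or 3 or without a WT library lost this call and that of the Ifi214 region. The window of Ifi203 largely coincides with that of Mndal, a further gene of this family named after its values were seen, so the value cannot be assigned to either. Before LPS the Ifi203 window held more H3K27ac in KO (373, 388 and 361 tags) than in WT (226, 233 and 228). At 1 h the window held less in KO, at 667, 532 and 502 tags against 1273, 797 and 1215. Its Pol II at 18 h was higher in KO as well, at 708, 722 and 716 tags against 343, 363 and 233. Ifi213 showed how replicate 1 changed a call. It held 20, 238 and 181 tags in KO and 764, 704 and 702 in WT, and adjusted p was 0.21 with all libraries and 0.000258 without KO replicate 1. The family consists of close copies, as does the Trim cluster, and how reads that fit several copies were placed is not given in the sources used here.

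The calls were uneven along the genome. The 5 Mb at 170 to 175 Mb of chromosome 1, which hold the Ifi200 genes, held 33 of the 283, with 9 higher and 24 lower among 209 regions tested (15.8%). Of 531 such stretches, 29 held 3 or more calls, and these 29 had 176 of the 283. Chromosomes 1 and 3 had 51 and 50 calls (1.92% and 2.38% of their regions), and chromosomes 10 and 17 had 2 each. Of the 16 regions tested on chromosome Y, 4 (25%) were called, all higher in KO. Within 5 Mb of Nr4a1 on chromosome 15, 12 of 285 regions were called (4.21%), 3 higher and 9 lower. Regions shifted in KO replicate 1 alone were spread evenly, at 8.25% to 13.2% of the regions of every autosome and of chromosome X. Gene starts lay in 8.97% of the regions called higher and 13.8% of those called lower, against 22.9% of all tested, and this difference was not tested.

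H3K27ac at promoters was read as the tags within 2500 bp of each gene start, where the tags of a found region were shared out by the length of its overlap. Such a value also depends on how far the region reached in each library. Of 11465 genes tested, 55 (0.48%) were called at an adjusted p under 0.05, 16 higher and 39 lower in KO. At an unadjusted p under 0.05 there were 1470. Without KO replicate 1 the count was 1121 (9.86%), 286 higher and 835 lower, and without any other single library it was 10 to 28: 28 and 19 without KO replicate 2 or 3, and 15, 10 and 16 without WT replicate 1, 2 or 3. Next to the Trim and Ifi200 genes, Fcgr2b, the inhibitory IgG receptor, held 208, 163 and 147 tags in KO and 623, 591 and 628 in WT (-1.79 ± 0.13 SE, adjusted p = 0.00246). Xylt2, a xylosyltransferase of proteoglycan synthesis, held 295, 271 and 268 against 879, 877 and 824 (-1.60 ± 0.08 SE, adjusted p = 0.000409). At 1 h the Xylt2 window was split within each genotype, at 1019, 268 and 270 tags in KO and 476, 1100 and 1077 in WT. At 0 h it held 748, 736 and 727 against 846, 835 and 862. Ch25h, which makes 25-hydroxycholesterol, rose to 84.3, 79.7 and 81.7 from 13.4, 25.4 and 19.1 (1.67 ± 0.20 SE, adjusted p = 0.0208). These 3 were singled out after their values were seen. KO replicate 1 was the highest KO library for each, yet far from WT. The first 2 were called in all 16 alternatives, whereas Ch25h was lost in 7, including each fit without KO replicate 2 or 3 or without a WT library.

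Of the 16 cytokine genes tested, 1 was called, against 0.48% of all genes. Il1rn, the antagonist of the interleukin-1 receptor, held 265, 283 and 302 tags in KO and 118, 151 and 117 in WT, a rise of 1.09 ± 0.13 (SE, adjusted p = 0.0203). The call was lost in 8 of 16 alternatives (adjusted p up to 0.16), each fit without another library than KO replicate 1 included. Without KO replicate 1, 5 of them were higher and 1 lower, where 9.86% of all genes were called. Il6 then passed, with promoter tags of 335, 388 and 319 in KO against 236, 221 and 231 (adjusted p = 0.0102 without replicate 1 and 0.083 with it). Il12a, a subunit of interleukin-12, had 46.4 and 32.5 tags in KO replicates 2 and 3, 4.11 in replicate 1 and none in WT. The list's median change was 0.18 with all libraries and 0.31 without replicate 1, against -0.04 and -0.09 over all genes.

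The AP-1 list of 20 genes had no call with all 6 libraries and a median of -0.04. Jun, the namesake subunit, held 922, 917 and 893 tags in KO and 1059, 1049 and 1044 in WT, lower in every KO library but not called (adjusted p = 0.37). Without replicate 1, 1 gene of the list was higher and 1 lower, a share of the 20 near the 9.86% of all genes. The higher was Jdp2, a repressor of AP-1, with 518 and 513 tags in KO replicates 2 and 3, 327 in replicate 1 and 340, 331 and 329 in WT. Atf3 went the other way: KO replicate 1 held 696 tags, while replicates 2 and 3 held 50.5 and 34.1 and WT 50.2, 49.6 and 44.6. Of the 10 NF-kB genes none was called. Nfkb1, encoding p105/p50, was lowest, at 554, 522 and 611 tags in WT and 376, 284 and 273 in KO (-0.84 ± 0.14 SE, adjusted p = 0.0618, and 0.000731 without replicate 1). Without replicate 1, 1 gene of this list was higher and 3 were lower.

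None of 12 chemokine, 19 LPS effector and 27 interferon-response genes was called with all libraries, at medians of -0.15, -0.03 and -0.05. Without replicate 1, 1, 4 and 4 of them were called, against 9.86% of all genes. In the interferon-response list the median shift from WT was -0.30 in KO replicate 1, against 0.15 in each of replicates 2 and 3. In the chemokine list Cxcl2, which attracts neutrophils, held 266 tags in KO replicate 1, 63.6 and 46.3 in replicates 2 and 3 and 56.9, 31 and 45.7 in WT.

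The lists of sterol handling and clearance had medians below 0. Over all genes 0.48% were called with all libraries (0.34% lower) and 9.86% without replicate 1, where 835 of 11364 were lower. Of 9 genes of clearance receptors tested, Cd5l was called (5 lower without replicate 1), and the list's median was -0.52. Msr1, the scavenger receptor A, held 380, 860 and 972 tags in KO and 1293, 1339 and 1305 in WT, separate in every library but not called (adjusted p = 0.31, and 0.00648 without replicate 1). None of the 15 sterol and efflux genes passed, at a median of -0.35, and 3 were lower without replicate 1. Apoe, the lipoprotein ligand secreted by macrophages, held 8.5 tags in KO replicate 1, 150 and 139 in replicates 2 and 3, and 244, 261 and 218 in WT. Its Pol II tags at 18 h were 133, 135 and 133 in KO and 224, 213 and 220 in WT, with no such gap at replicate 1. Of 15 cell division genes none was called with all libraries, at a median of -0.31, and 4 were lower without replicate 1. The 7 reference genes gave no call in either fit and medians of 0.00 and -0.05. Igsf3 had no region at its start in any of the 6 libraries. None of these list medians was tested.

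**Figure D4:**
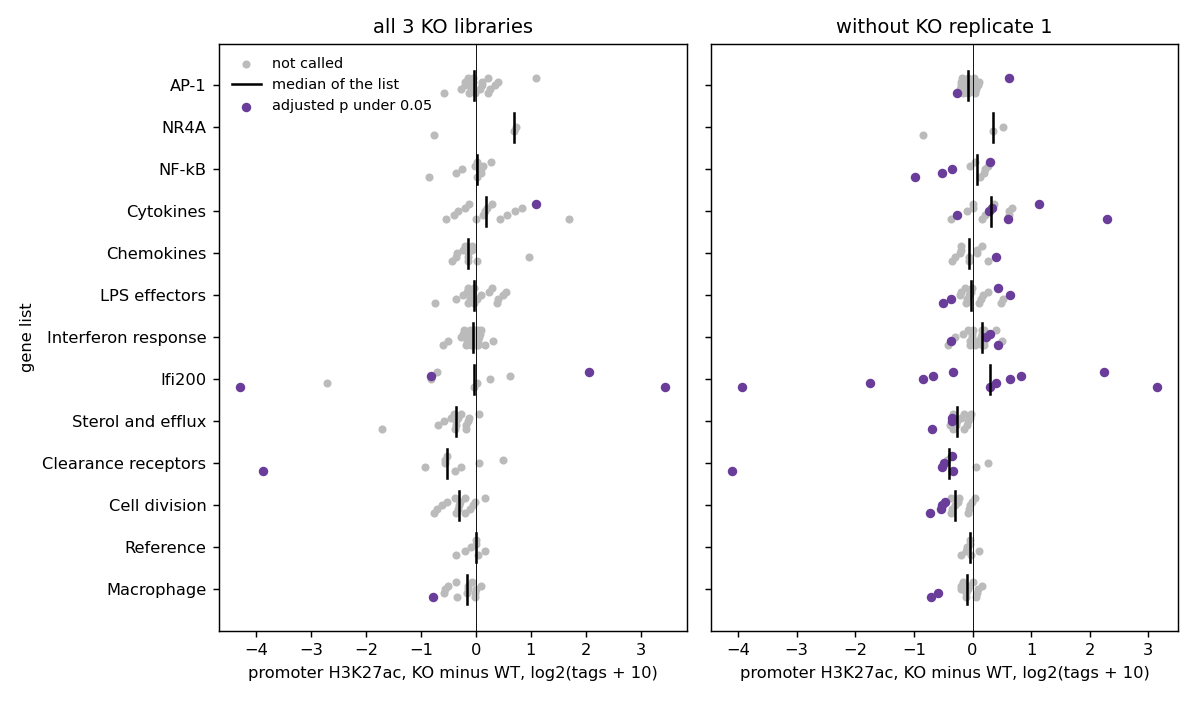
Promoter H3K27ac, KO minus WT in log2(normalized tags + 10), of the genes of each list (points) with the list's median (bar), from the fit with all 3 KO libraries (left) and without KO replicate 1 (right). Filled purple points passed an adjusted p under 0.05 over all genes; the Ifi200 list has 4 such points on the left and 11 on the right.

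The cell type label was set against marker promoters. All 14 macrophage genes were tested, with summed tags of 8998 to 11497 in KO and 12238 to 12496 in WT. The sums of the 7 reference genes were also lower in every KO library, at 4586 to 5788 against 5808 to 5924, as were those of the cell division genes, at 1804 to 2087 against 2384 to 2471. Itgam, which encodes CD11b, was the 1 called, against 0.48% of all genes, with 293, 365 and 325 tags in KO against 544, 581 and 589 (-0.79 ± 0.10 SE, adjusted p = 0.0271), a call lost in 8 of 16 alternatives, median centring and each fit without KO replicate 3 or without a WT library among them. Without replicate 1, 2 macrophage genes were lower, where 9.86% of all genes were called. Fibroblast markers were not found in any library and T cell markers summed to at most 5.94 tags. Summed B cell markers were 159 to 250 in KO and 325 to 370 in WT, mostly from Ms4a1 (239, 242 and 159 against 325, 363 and 339), with 3 of the 6 genes at 0 throughout. Neutrophil markers summed to 49.5 to 119 in KO and 54.1 to 66.3 in WT and those of dendritic cells to 247 to 614 and 427 to 464. The part of these in the results was not tested.

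The regions of replicate 1 alone were defined by replicates 2 and 3 lying at the WT level, and no test between genotypes is given for them. Slc7a11, the cystine transporter gene, had an intragenic region at chr3:50412886-50422882 with 345 tags in KO replicate 1, 5.27 and 0 in replicates 2 and 3 and 0, 7.23 and 6.1 in WT. A region near Tap2, which moves peptides for antigen presentation, held 131 tags in replicate 1 and 0 to 6.58 in the other 5. At the start of Apoc1, an apolipoprotein gene beside Apoe, chr7:19692175-19696405, replicate 1 held 7.31 tags, replicates 2 and 3 held 280 and 244, and WT 333, 337 and 337. A region at Strada was not found in replicate 1 and held 130 to 152 tags in the other 5. The AP-1 motif was in the middle 300 bases of 15.4% of the 2086 regions higher in replicate 1 and of 5.74% of the 2212 lower, against 10.1% of all tested. The ISRE motif had the reverse order, with 4.08% and 9.72% against 7.03%. Their levels also differed: median WT tags were 30.3 in the higher and 76.1 in the lower regions, and 46.3 over all.

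The regions shifted in replicates 2 and 3 alone were mostly weak gains. Near Lad1, 55.3 and 43.7 tags in these replicates stood against none in replicate 1 and WT. Near Lima1, a regulator of actin, it was 40.6 and 37.1 against none. The median level of the higher ones was 22.4 and 19 tags in these replicates. The ISRE motif was in 23.5% of the 307 higher regions (72 regions) and the AP-1 motif in 7.17%, against 7.03% and 10.1% of all tested. In the 71 lower regions these shares were 2.82% and 12.7%. In the 392 regions higher in all 3 KO libraries the ISRE share was 11.2% and the AP-1 share 12.0%, and in the 217 lower 6.91% and 8.76%. The NBRE was rare everywhere, in 1.46% of all regions tested, 2 of the 392 higher and 4 of the 217 lower in all 3 KO libraries.

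The same regions were read in libraries that took no part in the 18 h comparison. Pol II at 18 h differed in 1118 of 31058 regions (3.6%), 2.09% higher and 1.51% lower. A region was tested in such a set where at least 2 libraries of a genotype held it, so that a region found in 1 genotype alone entered only through that genotype. The counts over the called regions are therefore given as a description. Pol II was lower in 81 and higher in 1 of the 138 regions called lower for H3K27ac, 109 of them tested. It was higher in 68 and lower in 1 of the 145 called higher, 108 of them tested. At the start region of Cd5l no KO library had Pol II tags, and the WT libraries held 522, 489 and 520. In untreated cells 505 of 37924 regions (1.33%) were called for H3K27ac before LPS, 0.87% higher and 0.461% lower. Of the 138 regions called lower at 18 h, 125 were tested at 0 h, 72 of which were lower and none higher. Of the 145 called higher, 72 were tested, 50 of which were higher and 1 lower, and the others were not tested for want of libraries with a region. The median over all 145 was 0 tags in each of the 6 libraries at 0 h. At 1 h 328 of 38844 regions (0.844%) were called, 0.484% higher and 0.36% lower, or 8316 without replicates numbered 1. Without those numbered 2 or 3 limma called 0, with 3355 and 3291 regions at an unadjusted p under 0.05. Of the regions called at 18 h, 121 of the lower ones were tested at 1 h, 50 of which were lower and none higher. Of the 145 higher ones 99 were tested, 33 of which were higher and 1 lower, and the others were not tested. Median tags over all 145 were 19.9, 14.3 and 19.2 in KO and 0 in each WT library at 1 h.

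Not all changes were there before LPS. In the test of genotype by time, 18 h against 0 h, 348 regions (0.875%) were called, 223 (0.561%) with a higher KO minus WT difference at 18 h and 125 (0.314%) with a lower one. This test shares the 18 h libraries with the calls. Centring moved the split to 323 and 95, and without replicates numbered 1, 2 or 3 limma called 911, 8 and 0, the last with 4678 regions at an unadjusted p under 0.05. Among the regions called higher at 18 h, 84 of 145 passed it with a higher difference and 4 with a lower one. The region upstream of Il6 was 1 of these 84: its difference at 0 h was -0.47 (adjusted p = 0.24), and the interaction was 2.77 ± 0.46 (SE, adjusted p = 0.0147). At 1 h this region was present in both genotypes, with 90.1, 81.1 and 105.5 tags in KO and 119, 136 and 147 in WT. Among the regions called lower, 49 of 138 passed with a lower difference and 1 with a higher one. Near Hfe2, by contrast, no KO library had a region at 0 h either, while WT held 589, 520 and 637 tags.

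The regions of KO replicate 1 alone moved in other KO libraries at 1 h. In the 2086 higher regions, median H3K27ac at 1 h was 68.8 and 68.0 tags in KO replicates 2 and 3, 43.7 in KO replicate 1 and 39.0 to 39.6 in WT. In the 2212 lower regions it was 28.2 and 30.9 tags in KO replicates 2 and 3, 46.2 in KO replicate 1 and 46.3 to 48.1 in WT. Both KO replicates 2 and 3 lay above the 1 h WT range in 64.9% of the higher regions with a value, against 41.9% of all regions. They lay below it in 53.3% of the lower ones, against 27%. At 0 h the KO medians in the higher regions, 42.2 to 44.2 tags, overlapped the WT medians of 40.2 to 43.7. Pol II at 18 h, which has its own KO replicate 1, had medians of 7.24 to 7.42 in KO and 6.37 to 7.41 in WT there.

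**Figure D5:**
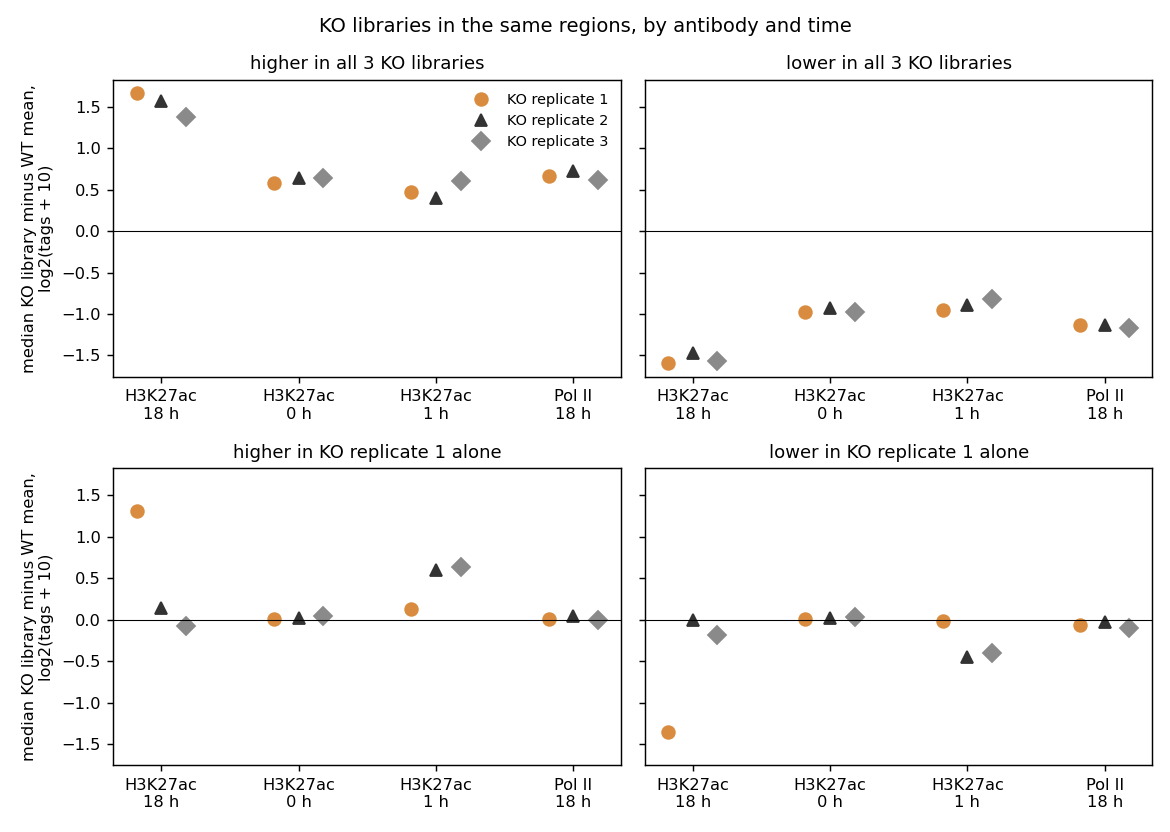
Median over regions of each KO library minus the WT mean, in log2(normalized tags + 10), for regions shifted at 18 h in all 3 KO libraries (top) or in KO replicate 1 alone (bottom); the x axis gives antibody and time, and outside H3K27ac at 18 h only regions with tags in at least 1 of the 6 libraries enter. In the bottom panels the KO libraries are off 0 at 18 h in replicate 1 and at 1 h in replicates 2 and 3, at medians of 0.61 and 0.63 for the higher regions.

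The correlations between libraries had the same order. At 1 h, over 27310 regions found in all 6 libraries, KO replicate 1 correlated at 0.975 to 0.978 with WT. KO replicates 2 and 3 correlated at 0.990 with each other, at 0.911 and 0.916 with KO replicate 1 and at 0.893 to 0.904 with WT. KO replicate 1 at 18 h correlated at 0.885 and 0.893 with KO replicates 2 and 3 of 1 h and at 0.826 with KO replicate 1 of 1 h, over 23422 regions found in all 18 H3K27ac libraries. KO replicate 2 of 18 h gave 0.833 and 0.845 with replicates 2 and 3 of 1 h and 0.843 with replicate 1. For Pol II at 18 h, the 3 KO pairs correlated at 0.980 to 0.982, with replicate 1 no farther off than the others. Across the 28894 regions on assembled chromosomes that were found in all 6, the deviation of KO replicate 1 from replicates 2 and 3 correlated with the same deviation at 1 h at -0.36 (Spearman). With that in Pol II at 18 h the value was 0.0070, and with the LPS response of WT from 0 to 18 h it was -0.24. With the response of WT from 0 to 1 h it was -0.067, and with the WT level at 18 h -0.18. In regions that rose over 1 log2 unit in WT from 0 to 18 h the median deviation of replicate 1 was -0.27, in those that fell it was 0.43, and in the rest 0.12. Split by the change in WT from 0 to 1 h, these medians were -0.13, 0.12 and 0.13. In the 18 h groups that rose or fell, replicate 1 and replicates 2 and 3 lay off WT in opposite directions, and in the rest mainly replicates 2 and 3 did. Against WT, the median shift of replicate 1 in the 3 groups of 18 h was -0.08, 0.24 and 0.0067, and that of replicates 2 and 3 was 0.14, -0.21 and -0.12. The share of tags in regions did not mark replicate 1 out, nor did its fragment length of 234 bp among 214 to 342 bp. It was the deepest library and the 1 of the 6 with 2 tags allowed per position, per the file headers. Their part in its deviation was not tested.

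The inputs of 18 h were unlike each other. The WT input had 95554 regions over 125 Mb, with 19.8% of its tags, and the KO input 27554 regions over 18.5 Mb with 6.18%. A region of the WT input overlapped 111 of the 138 regions called lower and a region of the KO input 16, against 72.5% and 17.6% of all tested. Of the regions called higher these were 66 and 29 of 145. At the Trim12a start the WT input held 68.1 tags and the KO input none. With regions that overlap either input left out, 95 calls were made among 10606 regions tested (0.896%), 69 higher and 26 lower. With all regions the share was 0.712%.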

How the data were processed

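Bone marrow-derived macrophages were profiled by ChIP-seq. According to the submitters' processing notes and the study's methods, Skewer was used by the authors for trimming, HISAT2 2.1.0 for alignment to mm10 and HOMER for enriched regions, after removal of duplicates. Per the file headers, windows of 500 bp at a Poisson p of 0.001 were stitched within 1000 bp, without an input control. The deposited values are a signal, the normalized tag count of each region per 10 M tags. Only regions that passed are listed, so 0 means that none was found. Whole reads could not be recovered from these values, and no count test was used. Depth ranged from 15.0 to 55.4 M tags.

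Regions of the 6 libraries were merged on overlap and their tags summed. For gene windows, and for the other libraries in the merged regions, the tags of a found region were shared out by the length of its overlap. Regions (39767 of 51385) and genes (tags within 2500 bp of the start, 21897 protein-coding genes) that 2 or more of the 3 KO or of the 3 WT libraries held were tested by limma 3.58.1 (R 4.3.3, trend) on log2(tags + 10), with Benjamini-Hochberg adjustment over all of them. Regions were called at an adjusted p under 0.05 and a change over 1, genes at the adjusted p alone. Changes on this scale understate those of low regions. The method was tested on simulated data whose spread came from the WT libraries and KO replicates 2 and 3. That simulation left out the spread of KO replicate 1 and set every region as found in all 6 libraries, so it is no check for such cases. Named were the 10 regions with the largest change in each direction, the 5 found in all 6 libraries, the 3 per direction of each replicate class, and called or up to 4 other members of each gene list, by the nearest protein-coding gene start. Not each of these is described, and 1 of the regions is not reported here. Members and lists were chosen with earlier results of these data known. Tables used pandas 2.3.3, pysam 0.24.0 and matplotlib 3.10.9.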

Additional observations from a re-analysis of the deposited data

Results flagged for a closer look

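For 16 of the named regions, the KO minus WT difference in H3K27ac at 18 h differed from that at 0 h by the test of genotype by time (limma, adjusted p under 0.05 and a size over 1 log2 unit), a test that shares the 18 h libraries with the calls. Among regions higher in KO, the difference was larger at 18 h by 3.12 in Vav3, 3.09 in Kcnab1, 2.96 near Acsl1, 2.77 upstream of Il6 and 2.52 in Fbxw7, on the log2(tags + 10) scale. Near Nuf2 it was smaller at 18 h, by -1.62.

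Among regions lower in KO, the loss was larger at 18 h by -4.75 at the Vrk2 region chr11:26709679-26713580, -3.90 near Cysltr2, which encodes a leukotriene receptor, and -3.73 in Ifi206 at chr1:173475252-173483498. The interaction was -2.50 at Trim12a, -2.36 in Sh2d1b1, -2.26 at Trim5, -1.65 at Gm4070, -1.55 at Cd5l, -1.23 near Olfr693 and -1.21 near Cfap45. For regions not found in any library of a genotype at 18 h, lower or higher in KO, these sizes depend on the pseudocount and on the level of the other genotype, and are no fold.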

How the results depend on the processing

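The number of regions per library turned from higher to lower in KO under the common density limit (-5305) and above 40 tags per kb (-2037). The 283 region calls (0.712% of the regions tested) became 133 (0.334%) with a pseudocount of 50 and 91 (0.315%) in regions found in all 6 libraries. Under those density limits there were 552 (1.71%) and 584 (3.77%), and 95 (0.896%) without input regions. Each share is of the regions tested in that setting. The region calls became 1476 with all 18 H3K27ac libraries in the fit, 1504 with library weights, and 42 to 1513 without each replicate in turn. The 55 gene calls became 36 with median centring, 367 with all 18 libraries, 1361 with library weights, and 10 to 1121 without each replicate; quantile normalization gave 39 (16 higher, 23 lower). The share of higher calls was 51.2% of region calls, but 60.9% with median centring, 73.3% with library weights, 35.9% with the replicate block and 7.88% (46 higher, 538 lower) above 40 tags per kb, and 29.1% of gene calls, but 41.0% with quantile normalization. With a pseudocount of 1 the interaction gave 781 calls, the 0 h comparison 847 and that of 1 h 686. Without each replicate number the interaction gave 0 to 911 calls and the 1 h comparison 0 to 8316. The regions shifted in all 3 KO libraries numbered 1870 and 97 with pseudocounts of 1 and 50, 2061 with limits of 0.6 and 0.3 and 1068 under the density limit. Those of replicate 1 alone numbered 1900 with a pseudocount of 50, and those of replicates 2 and 3 alone 883 and 13 with pseudocounts of 1 and 50 and 1158 with the other limits. The promoter change of Atf3 ranged from -0.17 to 1.83 without each replicate, the first value being that without KO replicate 1. The cause of these shifts was not tested.

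Replicate numbers did not pair the samples: the deviations of same-numbered libraries correlated at -0.03, 0.04 and -0.03. With the replicate block the calls were 103 regions, 21 genes, 167 interactions and 33 regions at 1 h.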
